A study of Mus musculus with 36 samples.

Results

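Of 115270 transcripts measured by RNA-seq in mouse cortical neurons, 273 met a rule for an early and transient rise with KCl. They were at least 2 times higher after 1 h of KCl than in silenced neurons. After 6 h of KCl they were under 1.5 times their own control, though some were still above it. They were chosen from these values. The mean at 1 h KCl had to be at least 3 CPM (the estimated count as a share of the library sum, times 1e6) and at least 2 times the wild-type mean at rest. The lowest 1 h KCl library also had to lie above the highest resting one, and the 6 h KCl mean had to be under 1.5 times its 7 h control. The level minimum kept 22972 transcripts, the fold 1213 of them, and the gap between libraries 554. The limit at 6 h then gave the 273. Throughout, 11 identifiers that the rule names were left out. The remaining 281 of the 554, at 1.5 times or more of their control at 6 h, are called the sustained transcripts here.

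The cells were primary cortical neurons from E16.5 mouse embryos, kept 7 days in vitro, and every group received the blockers TTX and APV. The wild-type (WT) groups were 1 h KCl with 2 h of blockers (5 libraries), 6 h KCl with 7 h of blockers (3 libraries) and 7 h of blockers without KCl (4 libraries). Neurons of Actl6b-/- embryos (KO, 7 libraries) had 2 h of blockers without KCl, called rest here, and so did a further WT group (5 libraries). KCl responses in KO were not analysed here. The 17 WT libraries carry 5 culture codes, and each library is named here by its group and code where it matters. Actl6b and cell type markers were not checked, because the files do not pair the identifiers with genes. In such bulk samples fewer cells of a type and less RNA per cell cannot be told apart.

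KCl raises the potassium outside the cell, depolarises the membrane and lets calcium in through voltage-gated channels. Calcium signalling then switches on immediate early genes within minutes, without new protein synthesis, and many of their RNAs are short-lived. Many immediate early genes encode transcription factors that act on a later wave of genes. TTX blocks sodium channels and APV blocks NMDA receptors, so cultures in the blockers are electrically silent. Actl6b, also called BAF53b, is the actin-related subunit of the neuronal BAF chromatin remodelling complex. The 273 identifiers have no gene name here, so none of them can be placed in these classes, and members are referred to by their length in bases.

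Library sums were 6902985 to 8015063 estimated counts at 1 h KCl, 6135380 to 7480901 in KO at rest and 5873349 to 7578714 in WT at rest. They were lower in the 6 h KCl libraries, with 3627450 to 4051922, and in the 7 h TTX/APV libraries, with 3569516 to 4020984. A depth difference therefore goes with every comparison between the 6 h or 7 h libraries and the others, and its part in them was not tested.

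The 273 transcripts together took 4546, 4170, 4032, 4438 and 4333 CPM in the 1 h KCl libraries, against 1303, 1441, 1281, 1358 and 1445 CPM in the WT libraries at rest. The 2 groups were far apart, as the rule requires, and each 1 h KCl library was 2.89 to 3.49 times its resting library of the same code. Means were 4304 ± 206 CPM at 1 h KCl and 1366 ± 75.6 CPM at rest (SD, n = 5 each). After 6 h of KCl the sum was still 3610, 3476 and 3636 CPM, against 3673, 3345, 3374 and 3758 CPM in the 7 h TTX/APV libraries. On library totals these 2 groups overlapped, and every library of both lay well above every resting one. The TMM factors that rescale library size were 1.06, 1.12 and 1.19 at 6 h KCl. At 7 h TTX/APV they were 1.28, 1.25, 1.29 and 1.37. TMM scaling therefore lowers the 7 h sums more than the 6 h KCl sums, so this overlap depends on the scaling.

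**Figure D1:**
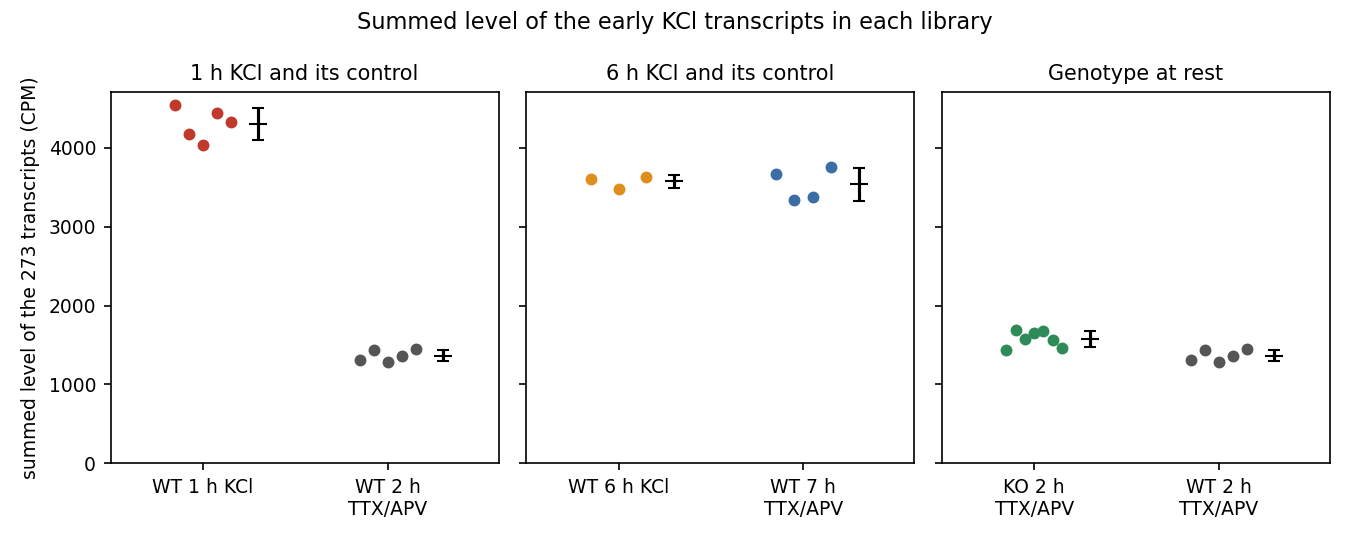
Summed level of the 273 transcripts in each library (CPM, linear axis from 0), in 3 panels for 1 h KCl and its control, 6 h KCl and its control, and genotype at rest. Points are libraries and bars are the mean ± SD. On library totals, the 6 h KCl libraries (3476 to 3636 CPM) lie among the 7 h TTX/APV libraries (3345 to 3758 CPM). Both lie above rest (1281 to 1445 CPM).

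The transcripts covered a wide range of lengths and most were of modest level. Their median length was 2733 bases, with quartiles of 1338 and 3882 bases and a range of 411 to 10071 bases. Over all 22972 transcripts of at least 3 CPM the median was 2975 bases, with quartiles of 1699 and 4460 bases, and over the sustained transcripts it was 2766 bases. At 1 h KCl, 51 members were at 20 CPM or more and 82 under 5 CPM. Per length, their level at 1 h KCl ran from 0.580 to 387 TPM, with a median of 6.70 TPM. Of the members, 6 form 3 pairs whose values are identical in every library, so the 273 are not all separate measurements.

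The induction at 1 h was under 3-fold in most members. The ratio of the mean at 1 h KCl to the mean at rest was under 3 for 140 members, 3 to 10 for 107 and 10 or more for 26, with a median of 2.94 and a range from 2.002 to 179.7 among the 272 with a level at rest. Member by member, 129 were at least 2 times higher in all 5 same-code pairs of libraries. In the edgeR fit over 31673 transcripts, 213 of the 272 members tested were called higher at 1 h KCl and 0 lower (adjusted p under 0.05, Benjamini-Hochberg), where 2.54% of all transcripts tested were called higher and 2% lower. All 272 had libraries that do not overlap, by the rule, against 3.83% of all transcripts in the higher and 3.93% in the lower direction. The rule used this contrast, so these counts are only a description. With the culture code as a block, 125 members were called higher, against 436 of all 31673 transcripts.

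The member with the highest level at 1 h KCl was the 3189-base ENSMUST00000107094.1. It had 212, 207, 191, 189.5 and 248 CPM at 1 h KCl, against 61.3, 57.2, 52.8, 37.6 and 58.6 CPM in WT at rest. At 6 h KCl it had 33.6, 27.1 and 30.6 CPM, against 48.0, 40.5, 52.9 and 75.1 CPM at 7 h TTX/APV. This transcript was high in the 1 h KCl libraries alone: at 6 h KCl all 3 libraries were below all 4 of their control and below all 5 at rest. In KO at rest it had 58.1 to 83.5 CPM, with a median of 62.8.

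The second by level, the 5995-base ENSMUST00000119954.8, had 131, 163, 122, 117 and 134 CPM at 1 h KCl, against 57.4, 75.1, 61.7, 62.0 and 63.4 CPM at rest. At 6 h KCl it had 105, 122 and 99.0 CPM, against 81.6, 74.1, 79.4 and 88.0 CPM at 7 h TTX/APV. The 6 h KCl libraries stayed above all of their controls, at 1.34 times the control mean, which is inside the limit of the rule but no return to control. The KO libraries, with 54.3 to 68.4 CPM and a median of 65.1, overlapped WT at rest.

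The remaining members described were singled out after their values were seen. Per length the highest at 1 h KCl was a 573-base transcript, with a mean of 387 TPM at 1 h KCl and 52.5 TPM at rest. Its counts were 95.2, 66.1, 87.7, 119.9 and 100.1 CPM at 1 h KCl, against 10.4, 10.8, 11.6, 20.1 and 13.6 CPM at rest. At 6 h KCl it had 27.6, 23.0 and 19.3 CPM, against 17.9, 21.8, 14.9 and 18.4 CPM at 7 h TTX/APV. This one came down with time: every library of the 6 h experiment was far below every 1 h KCl library, though all were above 4 of the 5 at rest.

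A 662-base member had one of the cleanest inductions. It had 71.1, 54.9, 68.9, 65.4 and 64.3 CPM at 1 h KCl, against 5.45, 6.69, 5.56, 6.27 and 5.97 CPM at rest, a ratio of means of 10.8. At 6 h KCl it had 12.8, 12.1 and 13.3 CPM, against 10.5, 10.7, 7.14 and 10.6 CPM at 7 h TTX/APV. Apart from 7 h TTX/APV library 4-2, at 7.14 CPM, the libraries of each of these groups were close together. Both late groups lay between rest and 1 h KCl.

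The largest ratios rest on transcripts that were near 0 at rest. A 1796-base member had 39.1, 54.5, 38.5, 19.1 and 29.7 CPM at 1 h KCl, against 0.0972, 0, 0, 0 and 2.75 CPM at rest. A 7165-base member, with the ratio of 179.7, had 30.7, 28.9, 21.6, 7.16 and 22.8 CPM at 1 h KCl and was under 1 CPM in every resting WT library. Its late libraries did not form groups: it had 6.14, 0 and 8.84 CPM at 6 h KCl, against 0, 15.5, 0 and 11.0 CPM at 7 h TTX/APV. An 886-base member was listed at 0 in all 5 resting libraries and averaged 6.29 ± 2.38 CPM at 1 h KCl (SD, n = 5). That is at least 73.5-fold higher, taking a floor of 3 counts over the resting group, or 0.0856 CPM.

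Such switching between near 0 and several CPM within a group was common in the late and KO libraries. In 39 members at least 1 library was under 0.01 CPM while another of the same group was at 3 CPM or more. This was so in 14 members at 6 h KCl, 19 at 7 h TTX/APV, 25 in KO at rest and 11 in WT at rest, and in 0 at 1 h KCl, where the rule sets a minimum. kallisto divides reads among transcripts that share sequence, so such values may move between isoforms of a gene, and whether they did was not tested. Over all transcripts of at least 3 CPM at 1 h KCl, 21.4% had such a group, against 14.3% of the members.

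**Figure D2:**
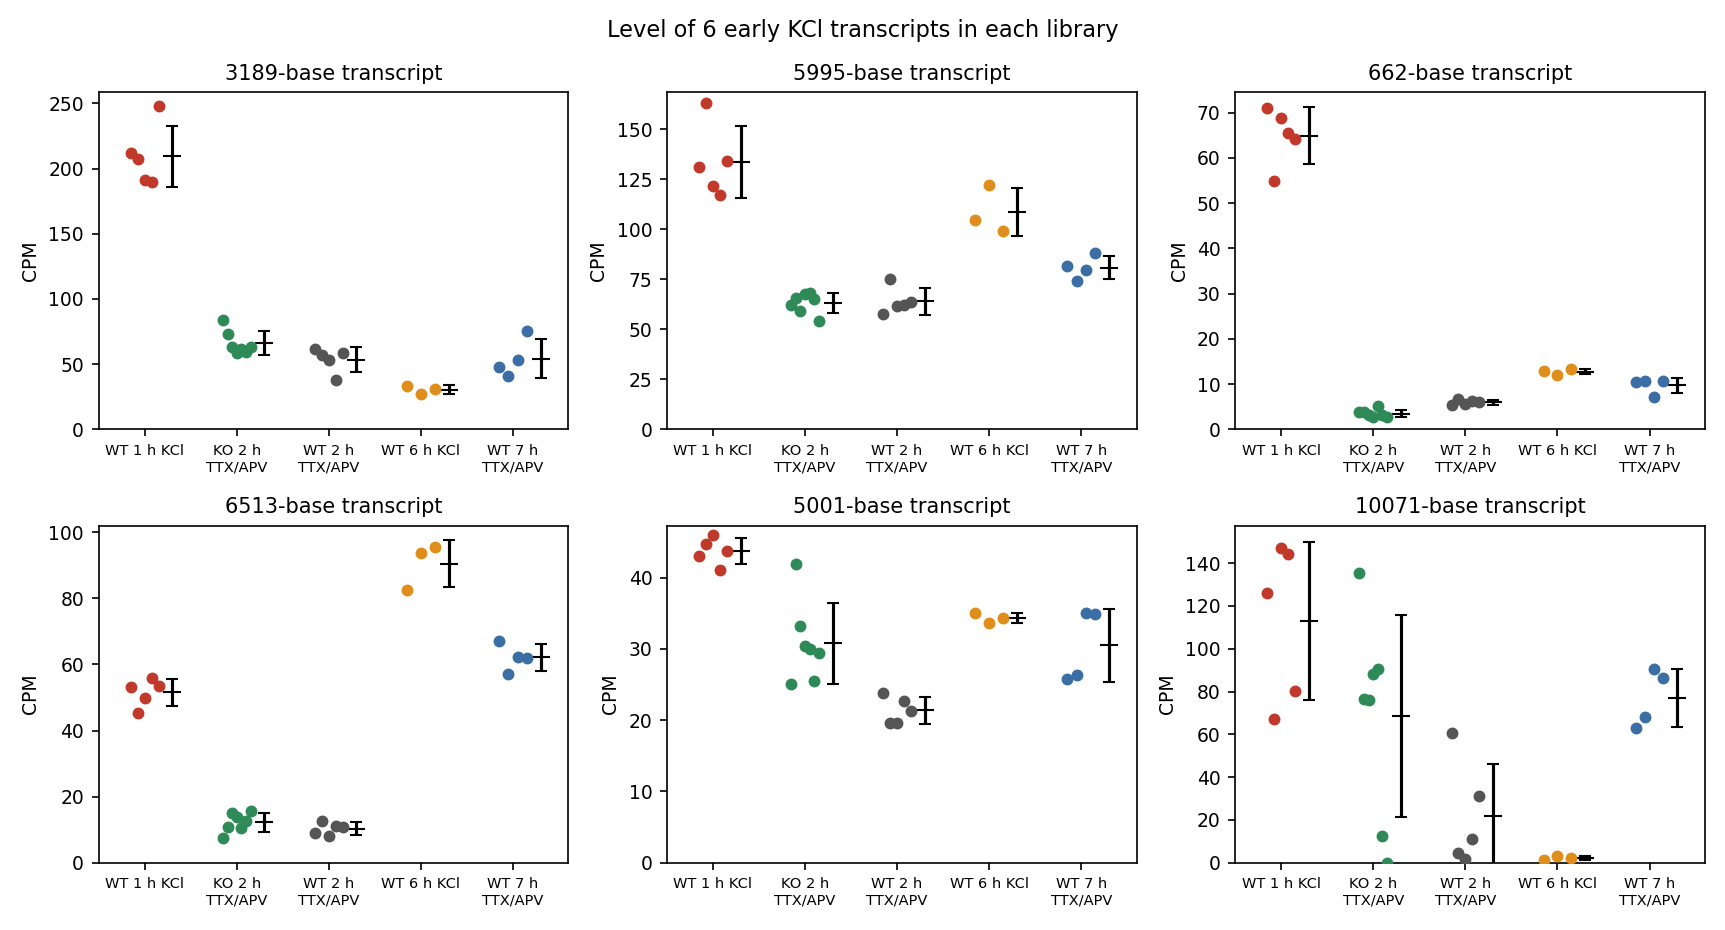
Level of 6 members in each library (CPM, linear axes from 0, 1 panel per transcript), for WT 1 h KCl, KO and WT at 2 h TTX/APV, WT 6 h KCl and WT 7 h TTX/APV. Points are libraries and bars the mean ± SD, cut at 0; the 3189-base and 662-base transcripts are highest at 1 h KCl, the 6513-base transcript is highest at 6 h KCl, and the 10071-base transcript spreads from near 0 to 136 CPM within KO.

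The label of a transient response holds against the matched control because the rule requires it, and for most members it does not hold against rest. On library totals the ratio of 6 h KCl to 7 h TTX/APV had a median of 1.06 over the members. By this ratio 117 were below and 156 at or above their control. At the same time the 6 h KCl mean was at least 2 times the resting mean for 200 members and at or above the 1 h KCl mean for 117. The lowest 6 h KCl library was above the highest resting one for 191 members. For 79 members the highest 6 h KCl library was below the lowest at 1 h KCl. Over the 22972 transcripts of at least 3 CPM at 1 h KCl, 4120 and 8656 met the limits on the means. The lowest 6 h KCl library was above the highest resting one for 4915 of them. For 7702 of them the highest 6 h KCl library was below the lowest at 1 h KCl. The median level over members was 8.57 CPM at 6 h KCl and 7.97 CPM at 1 h KCl, against 8.82 CPM at 7 h TTX/APV and 2.65 CPM at rest. Member by member, however, the ratio of 6 h KCl to 1 h KCl had a median of 0.866. On effective library sizes scaled by TMM this median was 0.703.

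In most members the control of the 6 h experiment itself stood above WT at rest. The 7 h TTX/APV mean was at least 2 times the 2 h mean for 204 of the 273 members (74.7%). That ratio was reached by 36.2% of all transcripts tested and by 18.1% of the 22972 of at least 3 CPM at 1 h KCl. The median ratio over members was 3.24, and 2.32 on effective library sizes scaled by TMM, on which 164 members reached 2-fold. In the edgeR fit of 7 h against 2 h of blockers, 148 of 232 members tested were called higher and 5 lower, against 28.3% and 25.7% of all 35933 transcripts tested. The lowest 7 h library was above the highest resting one for 169 of these members, and the reverse held for 1, against 34.3% and 15.7% of all transcripts tested. The median log2 fold change was 1.31 for members and -0.03 for all transcripts. Of the 22501 tested transcripts of at least 3 CPM at 1 h KCl, 16.0% were called higher and 39.3% lower. Their libraries did not overlap in 4780 that were higher and 5418 that were lower, and their median log2 fold change was -0.52.

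The rule itself favours this shift, since it takes transcripts that are low at rest and high in the 7 h control. Before the limit at 6 h is applied, 214 of 441 tested transcripts were called higher at 7 h than at 2 h, with a median log2 fold change of 0.93. Among the sustained transcripts 66 of 209 were called higher and 40 lower, with a median of 0.28. The 7 h libraries were also shallower than the resting ones, so depth, time in the blockers and the set of libraries cannot be told apart.

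**Figure D3:**
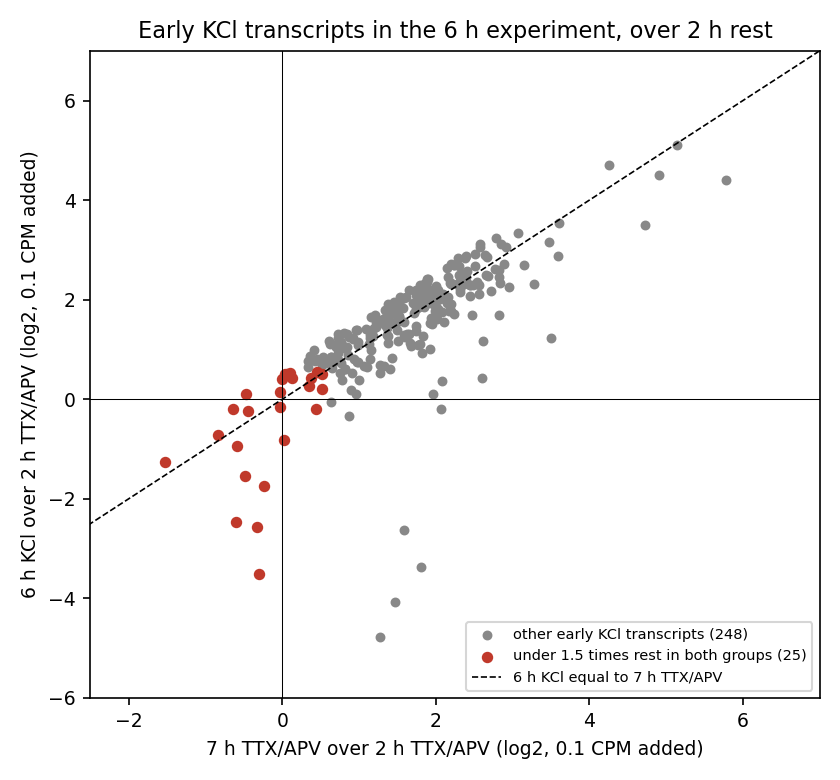
Each point is 1 of the 273 transcripts, with its mean at 7 h TTX/APV over WT at rest on the x axis and its mean at 6 h KCl over WT at rest on the y axis (both log2 ratios with 0.1 CPM added). Most points lie near the dashed line of equal late levels and above 0 on both axes; the 25 marked transcripts were under 1.5 times rest in both late groups.

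A 6513-base member shows the pattern of a 7 h control above rest. It had 53.1, 45.4, 49.8, 56.0 and 53.6 CPM at 1 h KCl, against 8.90, 12.8, 7.98, 11.2 and 10.9 CPM at rest. At 6 h KCl it had 82.4, 93.6 and 95.4 CPM, against 67.1, 57.2, 62.4 and 62.0 CPM at 7 h TTX/APV. Its CPM after 6 h of KCl was thus above that after 1 h in every library. In CPM the silenced controls of the 6 h experiment were above all 1 h KCl libraries as well. In TPM these controls overlapped the 1 h KCl libraries, with means of 12.9 and 12.8 TPM, against 2.43 TPM at rest. It met the rule because 6 h KCl was 1.46 times its control.

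At the other end, 42 members were under 1.5 times rest at 6 h KCl and 25 were so at both 6 h KCl and 7 h TTX/APV. Over the 22972 transcripts of at least 3 CPM at 1 h KCl, these counts were 17136 and 15215. Of the 281 sustained transcripts, 24 were under 1.5 times rest in both late groups. On TMM effective library sizes 48 members were so in both late groups. Of the 25, 15 were called higher at 1 h KCl by edgeR. Not all of the 25 came back to rest: a 4920-base member had 75.3 to 91.4 CPM at 6 h KCl. That was above every library at 7 h TTX/APV (53.3 to 64.1 CPM) and at rest (54.5 to 61.1 CPM). A 2613-base member had up to 30.5 CPM at 6 h KCl, against up to 27.7 CPM at 1 h KCl. The 25 include the 3189-base transcript with the highest level at 1 h KCl. A 2229-base member among them had 78.3, 68.2, 68.1, 79.6 and 93.9 CPM at 1 h KCl, against 16.1, 16.9, 12.8, 8.93 and 12.7 CPM at rest. It was at 23.3, 20.5 and 13.9 CPM at 6 h KCl, against 9.25, 15.8, 15.5 and 15.5 CPM at 7 h TTX/APV. A 475-base member had 34.8, 23.1, 27.4, 43.6 and 31.5 CPM at 1 h KCl, against 4.07, 7.22, 8.93, 3.82 and 6.10 CPM at rest. Its 3 libraries at 6 h KCl, with 9.72, 5.62 and 10.9 CPM, overlapped the 7 h TTX/APV libraries, with 6.12, 6.12, 6.43 and 7.21 CPM. The 25 differed in size of induction from 2.02 to 5.76 times rest.

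Few members differed between 6 h KCl and its control by the test. In the edgeR fit over 33196 transcripts, 10 of 234 members tested were called higher at 6 h KCl and 5 lower, against 8.46% and 6.88% of all transcripts tested. With the culture code as a block these counts were 1 and 1, against 652 and 239 of all 31300 transcripts. In the edgeR fit without the block both shares of members were below the background, and the upper limit of 1.5 in the rule keeps most higher transcripts out. DESeq2 called 31 members higher and 10 lower, against 4115 and 3798 of 33196 transcripts, so there the higher share was not below it. The libraries did not overlap in 21 members that were higher and 21 that were lower, against 11.3% and 22% of all transcripts. The median log2 fold change was 0.29 with TMM scaling and 0.09 on library totals alone. On library totals the median over all transcripts was -0.23 and with TMM -0.03, and the members' median was above it under both.

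The 2 members with the lowest ratio of 6 h KCl to control, among those of at least 3 CPM in that control, were near 0 at 6 h KCl. ENSMUST00000156559.7, of 1909 bases, was listed at 0 in all 3 libraries at 6 h KCl, against 2.85, 7.37, 2.15 and 6.00 CPM at 7 h TTX/APV. It had 2.98, 3.45, 5.30, 2.34 and 2.51 CPM at 1 h KCl, against 1.08, 1.73, 1.27, 2.27 and 1.63 CPM at rest. ENSMUST00000230763.1, of 6404 bases, had 0.0764, 0.0435 and 0.0319 CPM at 6 h KCl, against 10.8, 9.43, 12.2 and 6.98 CPM at 7 h TTX/APV. Its 8.97, 11.0, 7.99, 8.25 and 8.44 CPM at 1 h KCl stood against 5.87, 2.75, 3.62, 0.187 and 7.75 CPM at rest. A 10071-base member had 1.13, 2.94 and 2.04 CPM at 6 h KCl, against 62.8, 68.0, 90.5 and 86.5 CPM at 7 h TTX/APV. All 3 were low in every 6 h KCl library and above 2 CPM in every control. Over all 273 members, 20 were at under 0.5 times their 7 h control, against 3700 of the 22972 transcripts of at least 3 CPM at 1 h KCl.

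KO neurons at rest were compared with WT at rest, where the KO libraries are the only ones the rule did not use. The members summed to 1435 to 1691 CPM in KO, with a median of 1580, against 1303, 1441, 1281, 1358 and 1445 CPM in WT. On library totals the groups overlapped through KO library 1-1, with 1435 CPM. The next lowest KO library had 1464 CPM, above the highest WT library. The TMM factor that rescales library size was 0.873 for KO library 1-1, against 0.904 to 0.971 in WT at rest. TMM scaling therefore raises its sum more than theirs, so this overlap depends on the scaling. Means were 1579 ± 101 CPM in KO (SD, n = 7) and 1366 ± 75.6 CPM in WT (SD, n = 5). The 10071-base member alone ranged from 0.00603 to 136 CPM in KO, with a median of 76.3, against 60.5, 4.73, 1.96, 11.3 and 31.3 CPM in WT. Without it the sums were 1511 ± 106 CPM in KO and 1344 ± 83.1 CPM in WT. Among cultures whose code begins with 3 the mean sum was 1635 CPM in KO (1580 to 1674, n = 3). It was 1372 CPM in WT (1303 to 1441, n = 2). Among those that begin with 4 it was 1511 CPM in KO (1464 to 1559, n = 2) and 1361 CPM in WT (1281 to 1445, n = 3). For scale, the sum in WT at 1 h KCl was 4304 CPM.

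The median log2 fold change of the 210 members tested in KO against WT was 0.14, where that of all 32904 transcripts tested was 0.01. Above 0 were 137 of the 210 (65.2%), against 50.8% of all transcripts tested. Low values in resting WT helped to choose the members, so a shift upward in any other resting group is favoured by the choice. Among the sustained transcripts, chosen with the same resting libraries, the median was 0.29 over 214 tested. By edgeR with Benjamini-Hochberg adjustment 1 member was called higher in KO and 1 lower, against 1.3% and 1.63% of all transcripts tested. At an unadjusted edgeR p under 0.05 there were 28 of the 210 members, against 4791 of all 32904 transcripts tested. The libraries did not overlap in 5 members that were higher in KO and 1 that was lower, against 1.5% and 2.24% of all transcripts. Of the counts by p-value or by overlap, only the 5 of 210 not overlapping in the higher direction made a share above the background. That rests on few members, in the direction the choice favours, and was not tested.

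The member called higher was a 5001-base transcript, with 25.1 to 41.9 CPM in KO and a median of 29.9, against 23.8, 19.6, 19.6, 22.7 and 21.3 CPM in WT. Every KO library was above every WT library at rest, and all were below the 1 h KCl mean of 43.7 CPM. The log2 fold change was 0.53 (SE 0.127, edgeR adjusted p = 0.0468). The call was lost without any 1 of the 5 WT libraries or of the KO libraries 3-2, 3-3, 3-5 and 4-8, with edgeR adjusted p from 0.0631 to 0.117.

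The member called lower was the 662-base transcript described above, with 2.64 to 5.10 CPM in KO and a median of 3.19, against 5.45, 6.69, 5.56, 6.27 and 5.97 CPM in WT. All KO libraries were below all WT libraries, so this member, among those with a clear induction at 1 h KCl, was lower in resting KO. The log2 fold change was -0.78 (SE 0.184, edgeR adjusted p = 0.0424). The call was lost without any 1 of the 5 WT libraries or of the KO libraries other than 3-5, with edgeR adjusted p from 0.0516 to 0.109. Another 4 members, of 1726, 1312, 3910 and 2523 bases, were higher in every KO library than in any WT library, with edgeR adjusted p from 0.0566 to 0.114. The 1312-base member averaged 7.95 CPM in KO and 1.98 CPM in WT, and the 1726-base member 2.65 CPM in KO and 1.23 CPM in WT.

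**Figure D4:**
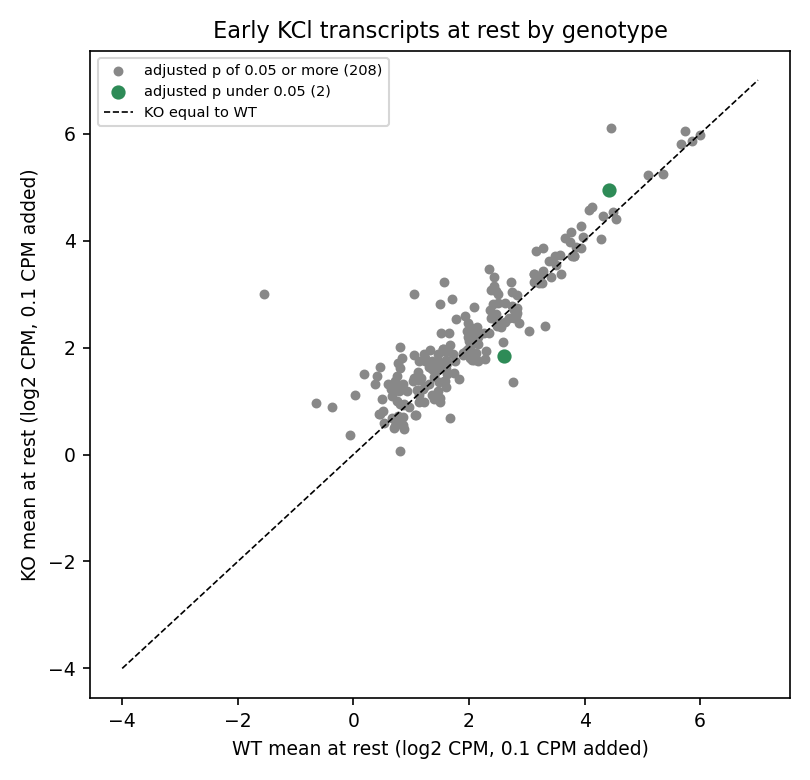
Mean level at rest of the members tested in KO (y axis) against WT (x axis), both as log2 CPM with 0.1 CPM added, with the dashed line where they are equal. The 2 transcripts called by edgeR are marked, 1 above and 1 below the line, and the other 208 scatter on both sides of it.

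The members nearest to each limit show how narrow the choice is. The lowest 1 h KCl means inside the limit were 3.06, 3.07 and 3.07 CPM, and the highest outside were 2.995, 2.995 and 2.972 CPM. The lowest ratios to rest inside were 2.002, 2.003 and 2.004, and the highest outside 1.9997, 1.998 and 1.993. The highest ratios of 6 h KCl to control inside were 1.497, 1.495 and 1.486, and the lowest outside 1.505, 1.514 and 1.517. The narrowest gaps between the lowest 1 h KCl and the highest resting library were 0.00219, 0.00222 and 0.0240 CPM, so some members barely separate. The first transcripts outside had a gap of 0.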

How the data were processed

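Per the labels' protocols, total RNA went into a stranded library kit. The deposited files give the authors' estimated count, effective length and TPM for each transcript, in the columns kallisto writes, per the file headers. The submitters' processing notes name kallisto 0.44.0 and Trim Galore. CPM is the estimated count over the library sum. For tests, estimated counts were rounded to whole numbers and fitted with the quasi-likelihood F test of edgeR 4.0.16 (R 4.3.3), with robust estimation, TMM and filterByExpr, on the groups compared. P-values were Benjamini-Hochberg adjusted over all transcripts tested, with a threshold of 0.05, and the standard error is the log2 fold change over the square root of F. The fits were tested on simulated data. DESeq2 1.42.0 and other settings were tried.

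The members and lists were chosen with earlier results of these data known. No identifier matched a gene in the tables used, so the lists of early response genes and cell type markers could not be applied. Identifiers printed are the 2 with the highest 1 h KCl level among members at 0.5 CPM or more at rest and the 2 with the lowest ratio of 6 h KCl to its control among those of at least 3 CPM in that control. The 12 ATAC-seq libraries were not used here.

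The WT libraries carry 5 codes, as many as there are stated WT biological replicates. Equal codes were therefore taken to mark 1 replicate, although no label explains them. Same-code correlations of deviations were -0.0356 to 0.0805. P-values measure the spread between these libraries.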

Additional observations from a re-analysis of the deposited data

Results flagged for a closer look

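For the summed level and 21 members, 88 groups of 4 to 7 libraries were examined, and in 6 of them 1 library stood far from the others, where chance gives about 1 in 20 groups. In WT at rest, library 4-4 was highest for the 1796-base transcript, with 2.75 CPM, and for the 7165-base transcript, with 0.618 CPM, where the other resting libraries were near 0. Library 4-3 at rest was lowest for a 2476-base transcript, with 0.117 CPM. At 7 h TTX/APV, library 4-2 was lowest for the 662-base transcript, with 7.14 CPM, and library 3-4 was lowest for the 2229-base transcript, with 9.25 CPM. In KO at rest, library 2-3 was highest for the 7165-base transcript, with 3.17 CPM.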

How the results depend on the processing

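The rule gave 273 members, 427 with a minimum of 1 CPM, 580 with no minimum and 117 where 6 h KCl had to be under its control. On TMM effective library sizes it gave 252, of which 218 were shared, and leaving out 1 library gave 264 to 337. Members called higher in KO numbered 1, against 429 of 32904 transcripts. DESeq2 called 7, against 1007 of 32904, and all RNA libraries in one fit gave 4, against 495 of 47640. With the first number of the code as a covariate or library totals alone there were 0, against 362 and 446 of 32904. With no filter there were 0, against 205 of 87634. Leaving out 1 library gave 0 to 1, against 215 to 468 of all transcripts. The median log2 fold change in KO stayed between 0.10 and 0.20. With the culture code as a replicate block, 125 members in place of 213 were called higher at 1 h KCl. Over all 31673 transcripts it was 436 in place of 806. At 6 h KCl 1 member in place of 5 was called lower, against 239 of 31300 transcripts with the block. At 7 h TTX/APV 127 in place of 148 were called higher, against 8086 of 33058 transcripts with the block. DESeq2 called 31 higher and 10 lower at 6 h KCl, against 4115 and 3798 of 33196 transcripts. Leaving out 1 library gave 3 to 6 lower, against 1335 to 1791 of all transcripts. Among the sustained transcripts, an alternative chosen after seeing the data, 66 were called higher at 7 h TTX/APV. The median ratio of 7 h to 2 h of blockers was 3.24, and 2.32 with TMM. For the 5995-base transcript the log2 fold change at 7 h against 2 h was -0.04, and 0.36 on library totals alone (edgeR adjusted p = 0.01001), a scaling that moves the median of all transcripts from -0.03 to 0.37. The 6 h KCl and 7 h libraries held fewer counts than the others, which limits low members there.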
